A study of Mus musculus with 10 samples.

Results

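Integrins are the cell surface receptors that hold cells to the extracellular matrix, and 10 genes of their matrix-binding subunits are described here in pressure-overloaded mouse hearts. The members were taken by gene symbol from a table of 20692 genes: the alpha chains Itga1, Itga5, Itga7, Itga8, Itga9, Itga11 and Itgav, and the beta chains Itgb1, Itgb3 and Itgb5. Each symbol matched 1 row, and all 10 members had enough reads to be tested, as did 12001 of the 20692 genes. RNA came from the ventricular apex, which the labels also call whole heart, of FVB/NJ mice aged 9 weeks. FVB/NJ is an inbred strain, and all mice were labelled female. One group of 5 libraries came from hearts 1 week after transverse aortic constriction (TAC), a narrowing of the aorta that makes the left ventricle pump against a higher pressure. The other 5 libraries came from sham-operated mice, named as such only in the series design text. No transgene or other allele is given for either group, and no animal identifiers are given, so the p-values measure the spread between libraries taken as separate mice.

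Each integrin is a pair of 1 alpha and 1 beta chain, and the pairing sets the ligand. The beta1 chain pairs with every alpha chain listed here, while alphaV also pairs with beta3 and beta5. The alpha1 and alpha11 chains give collagen receptors, alpha7 a laminin receptor, alpha5 the classical fibronectin receptor, and alpha8 and alphaV receptors for proteins with the tripeptide RGD. The alpha9 chain binds tenascin-C among others. In adult cardiomyocytes alpha7 with beta1 is the main integrin, and alpha11 is known as an integrin of fibroblasts. Binding on the outside is passed through talin, kindlin and other adaptors to the actin cytoskeleton and, in heart muscle, to the sarcomere at the costamere.

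Library totals lay between 7410967 and 10126574 counts, with a mean of 8300248 in TAC and 8929864 in sham (exact two-sided permutation test, p = 0.262, where 0.00794 is the smallest possible). Levels are CPM, reads scaled by edgeR to a common library total with TMM factors. Cardiomyocyte markers summed to 48228 to 69450 CPM in TAC and 72404 to 87016 CPM in sham, and 3 atrial markers together gave at most 3.34 CPM in TAC and 4.01 CPM in sham. The library labelled TAC replicate 1 did not match its female label (14 reads of Xist against 1042 to 1561 in the other 9 libraries, and 155 reads of Ddx3y against 0). Values without it are given where it moves a result. According to the submitters' processing notes, TAC and sham reads were aligned with different TopHat versions, so that any effect of this and the operation cannot be told apart.

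The sequences before the transcription starts are shown for 4 members, because these genes span the outcomes: Itga11 had the largest fold change, Itga5 and Itgb1 rose without overlap between groups, and Itgb5 did not pass the test. RefSeq (GRCm38.p6) lists a promoter for 8 of the 10 members. The start it gives for Itga9 lies 105002 bases inside the gene as GENCODE M21 draws it, and that window was not used, which left 7. The Itga11 window stops short of the RefSeq start by 29 bases that GENCODE M21 already calls transcribed. Bases are lower case, 5′ to 3′ on the gene's strand. Capitals mark the GC box (GGGCGG) and the TEAD motif (GGAATG), each searched on both strands.
Itga11 (chr9:62677605-62677825, plus strand): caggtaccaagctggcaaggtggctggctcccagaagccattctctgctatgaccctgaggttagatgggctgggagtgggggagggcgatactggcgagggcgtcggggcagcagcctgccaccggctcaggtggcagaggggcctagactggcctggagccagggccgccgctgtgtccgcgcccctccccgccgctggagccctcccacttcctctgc
Itga5 (chr15:103366792-103367041, minus strand): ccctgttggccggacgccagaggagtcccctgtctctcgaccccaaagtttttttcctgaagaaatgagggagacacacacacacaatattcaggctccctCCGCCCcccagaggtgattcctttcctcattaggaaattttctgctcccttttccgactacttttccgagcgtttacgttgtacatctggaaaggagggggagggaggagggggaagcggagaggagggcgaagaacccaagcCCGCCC
Itgb1 (chr8:128685404-128685653, plus strand): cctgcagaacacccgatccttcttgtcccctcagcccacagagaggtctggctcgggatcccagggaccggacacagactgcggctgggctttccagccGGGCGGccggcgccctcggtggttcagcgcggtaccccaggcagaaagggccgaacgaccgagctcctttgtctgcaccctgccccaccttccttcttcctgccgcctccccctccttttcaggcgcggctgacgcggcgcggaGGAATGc
Itgb5 (chr16:33829415-33829664, plus strand): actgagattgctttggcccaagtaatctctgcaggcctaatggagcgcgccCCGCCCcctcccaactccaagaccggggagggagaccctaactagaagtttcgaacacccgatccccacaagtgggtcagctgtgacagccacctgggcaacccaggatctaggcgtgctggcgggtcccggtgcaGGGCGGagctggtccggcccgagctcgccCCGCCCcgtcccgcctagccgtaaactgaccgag

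Composition and motifs were taken over the full 250 bases before each RefSeq start, for Itga11 with the 29 bases not shown. The 7 usable member promoters had a GC content of 55.6% to 68.4% and 10 to 21 CG dinucleotides. All 7 lay above the medians of the 32851 listed promoters, which were 52.4% and 6. A GC box stood in 3 of the 7 (Itga5, Itgb1 and Itgb5) and in 32.7% of all promoters. The TEAD letters stood in 1 of 7 (Itgb1) and in 12.6% of all. The AP-1 letters TGACTCA, whose reverse complement was searched too, were in none of the 7 and in 4.46% of all, and the CArG box was in none of the 7 and in 1.47% of all. Among these 7, Itgb5 had the most GC boxes, 3. A link between motifs and the outcome in TAC was not tested.

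Most matrix-binding integrin transcripts were higher in TAC hearts. At an adjusted p under 0.05 by edgeR's quasi-likelihood test, 8 of the 10 members were higher in TAC and none was lower. Of all tested genes, 35.8% were called, 18.8% as higher and 17.0% as lower. The members were chosen with earlier results of these data known, so the contrast with these shares is a description and not a test. All 10 fold changes were above 0, so no member was lower at an unadjusted p under 0.05 either, nor by DESeq2 or limma-voom. The members not passing were Itga7 and Itgb5. In 6 members every TAC library lay above every sham library, which was so for 12.2% of all tested genes. No member had all TAC libraries below all sham libraries (11.6% of all genes). The median log2 fold change of the 10 members was 0.64, against 0.00 for all tested genes, and the members ranged from 0.09 to 1.03. Of all calls, 52.5% were higher. Scaled by library totals alone, the median of all genes moved to 0.11, 73.8% of the calls were higher, and 9 members were called higher. Without TAC replicate 1, 7 members were higher and none was lower. In tissue RNA, more cells of a type and more transcript per cell cannot be told apart.

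**Figure D1:**
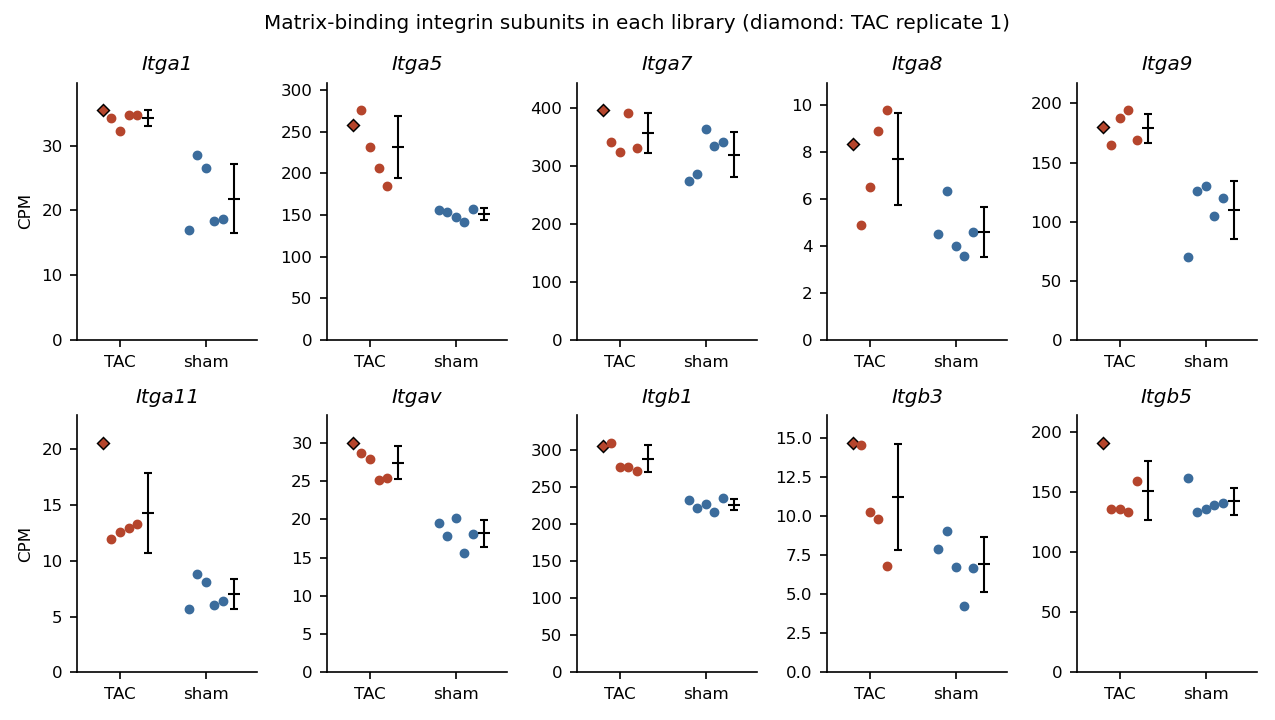
TMM-scaled CPM of each member in the 5 TAC (left, red) and 5 sham libraries (right, blue), with the mean and SD as a black bar. Each vertical axis starts at 0, and the diamond is the library labelled TAC replicate 1. The groups do not overlap for Itga1, Itga5, Itga9, Itga11, Itgav and Itgb1.

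Among the members, the collagen-binding alpha chains Itga1 and Itga11 rose. Itga11 (ENSMUSG00000032243, chromosome 9) stood at 20.6, 12, 12.5, 12.9 and 13.3 CPM in TAC replicates 1 to 5, and at 5.66, 8.78, 8.14, 6.06 and 6.41 CPM in sham replicates 1 to 5. Every TAC library lay above every sham library, and TAC replicate 1 lay far above the other TAC libraries. The mean was 14.3 ± 3.56 CPM in TAC and 7.01 ± 1.37 CPM in sham (SD, n = 5 each), a log2 fold change of 1.03 ± 0.17 (SE, edgeR adjusted p = 0.000653). This was the largest change among the members, and without TAC replicate 1 it was 0.86 ± 0.13 (edgeR, adjusted p = 0.000381). The values rest on 615 TAC reads and 298 sham reads.

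Itga1 (ENSMUSG00000042284, chromosome 13) had 35.5, 34.2, 32.3, 34.7 and 34.7 CPM in TAC and 17.0, 28.5, 26.5, 18.3 and 18.7 CPM in sham. The TAC libraries lay close together, while the sham libraries fell into a higher pair, replicates 2 and 3, and 3 lower ones, all below TAC. Itga1 rose by 0.66 ± 0.13 on the log2 scale (edgeR, adjusted p = 0.00166). Outside the members, collagen is also bound by Itga10 and Itga2, named after their values were seen. Itga10 had 1.58 ± 0.25 CPM in TAC and 1.51 ± 0.748 CPM in sham and did not pass (log2 fold change 0.05, edgeR adjusted p = 0.916). Itga2 was too rare to be tested, with 0.731 to 1.81 CPM in TAC and 0.114 to 0.517 CPM in sham. Of the exonic bases of Itga1, 3.68% are shared with another annotated gene on the same strand, whose reads cannot be told apart from its own.

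The fibronectin receptor chain rose in TAC. Itga5 (ENSMUSG00000000555, chromosome 15) had 258, 276, 232, 206 and 185 CPM in TAC, against 155, 154, 148, 141 and 158 CPM in sham. There was no overlap, with a wider spread in TAC (231 ± 36.9 CPM) than in sham (151 ± 6.65 CPM; SD, n = 5 each). On the log2 scale it rose by 0.61 ± 0.09 (edgeR, adjusted p = 0.000368).

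Of the remaining RGD receptors, Itgav (ENSMUSG00000027087, chromosome 2) had 30.1, 28.7, 28.0, 25.2 and 25.4 CPM in TAC and 19.5, 17.8, 20.1, 15.6 and 18.1 CPM in sham. There was no overlap between groups, and the log2 fold change of 0.59 ± 0.08 had the smallest adjusted p of the 10 members (0.000202 by edgeR). Itga8 (ENSMUSG00000026768, chromosome 2) had the lowest level per length of the alpha chains, described further on, with 8.32, 4.89, 6.51, 8.87 and 9.77 CPM in TAC and 4.51, 6.34, 4, 3.55 and 4.58 CPM in sham. Here the groups overlapped, as TAC replicate 2 lay below sham replicate 2. Its log2 fold change was 0.75 ± 0.20 (edgeR, adjusted p = 0.0103), from 336 TAC reads and 197 sham reads. On the opposite strand, another annotated gene covers 5.9% of the exonic bases of Itgav and 5.05% of those of Itga8, and the libraries do not keep the strand.

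Itga9 (ENSMUSG00000039115, chromosome 9), the chain of the tenascin-C receptor, rose as well. It had 180, 165, 187, 194 and 169 CPM in TAC, against 69.9, 126, 130, 105 and 120 CPM in sham. Sham replicate 1 was well below the other sham libraries, and all sham libraries lay below all TAC libraries. The log2 fold change was 0.70 ± 0.13 (edgeR, adjusted p = 0.00139).

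The laminin receptor chain of cardiomyocytes did not pass the test. Itga7 (ENSMUSG00000025348, chromosome 10) had 397, 341, 324, 393 and 331 CPM in TAC and 274, 286, 365, 334 and 342 CPM in sham. The groups overlapped broadly, with sham replicate 3 above 3 of the TAC libraries. The log2 fold change was 0.16 ± 0.09 (edgeR, adjusted p = 0.182), and scaled by library totals alone it was 0.26 and passed (edgeR, adjusted p = 0.0302). Counts per gene do not separate the splice forms of Itga7 or of Itgb1, both of which have muscle forms.

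The shared beta1 chain rose by the least of the members that passed. Itgb1 (ENSMUSG00000025809, chromosome 8) had 305, 309, 276, 277 and 271 CPM in TAC, against 231, 221, 227, 215 and 234 CPM in sham. The groups were narrow and apart. The mean was 288 ± 17.9 CPM in TAC and 226 ± 7.68 CPM in sham (SD, n = 5 each), with a log2 fold change of 0.35 ± 0.05 (edgeR, adjusted p = 0.000409).

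The alphaV partners beta3 and beta5 differed in outcome. Itgb3 (ENSMUSG00000020689, chromosome 11), also the beta chain of the platelet fibrinogen receptor, had 14.7, 14.5, 10.2, 9.81 and 6.81 CPM in TAC and 7.86, 9.02, 6.72, 4.23 and 6.64 CPM in sham. TAC replicate 5 lay within the sham range. The log2 fold change of 0.69 ± 0.22 passed (edgeR, adjusted p = 0.0281), but it missed the threshold in 5 of the 10 fits with 1 library removed. These were the fits without TAC replicate 1 (log2 fold change 0.57, adjusted p = 0.067), TAC replicate 2 (0.58 and 0.0688), sham replicate 3 (0.68 and 0.0537), sham replicate 4 (0.56 and 0.0684) or sham replicate 5 (0.68 and 0.0594), all by edgeR. Platelet and megakaryocyte markers summed to 16.9 to 21.2 CPM in TAC and 15.4 to 19.2 CPM in sham. Of the 4 tested, 1, Pf4, was higher (25%, against 18.8% of all tested genes). Itga2b, the platelet partner of beta3, had 3.33 ± 0.571 CPM in TAC and 3.44 ± 0.438 CPM in sham (edgeR, adjusted p = 0.844). Their part in the Itgb3 result was not tested.

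Itgb5 (ENSMUSG00000022817, chromosome 16) had 191, 136, 136, 134 and 160 CPM in TAC and 162, 134, 136, 139 and 141 CPM in sham. Apart from TAC replicate 1, the TAC libraries lay within or next to the sham range. The log2 fold change was 0.09 ± 0.10 (edgeR, adjusted p = 0.518), and it turned to -0.011 ± 0.07 without TAC replicate 1 (edgeR, adjusted p = 0.927).

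**Figure D2:**
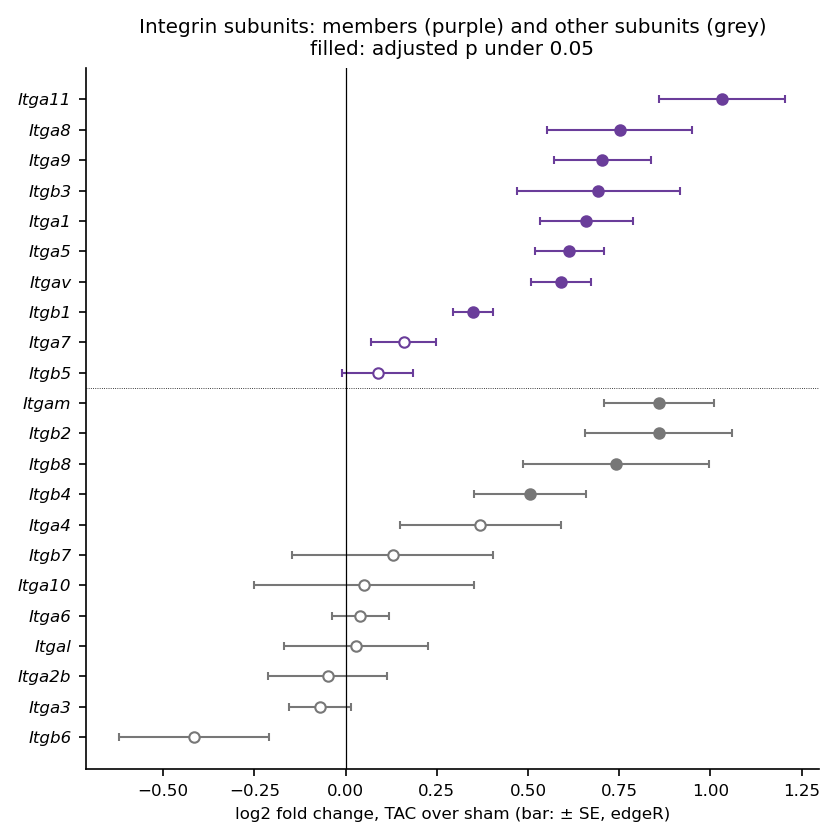
Log2 fold changes of TAC over sham with their SE for the 10 members (purple, upper rows) and the 12 other tested integrin subunits (grey, lower rows), where filled points passed at an adjusted p under 0.05. Of the members 8 are filled, all to the right of 0, and of the other subunits 4.

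Levels of different subunits were compared per length, as CPM per kb of the longest principal transcript in GENCODE M21. Among the alpha chains, Itga7 was the most abundant in both groups, with 89.1 ± 8.69 CPM per kb in TAC and 79.8 ± 9.57 in sham. Itga5 came second, with 52.8 ± 8.43 CPM per kb in TAC and 34.5 ± 1.52 in sham, and Itga9 came next, with 25.5 ± 1.75 CPM per kb in TAC and 15.7 ± 3.48 in sham. Itgav, Itga1, Itga11 and Itga8 followed in that order in both groups, between 3.89 and 1.32 CPM per kb in TAC and between 2.58 and 0.791 in sham. The library ranges of Itga1 and Itga11 overlapped in both groups, and those of Itgav and Itga1 in sham, so these neighbours cannot be ranked. Among the beta chains the order in both groups was Itgb1, Itgb5 and Itgb3, with 75.4 ± 4.7, 46.1 ± 7.55 and 1.94 ± 0.583 CPM per kb in TAC and 59.2 ± 2.01, 43.4 ± 3.45 and 1.19 ± 0.308 CPM per kb in sham (SD, n = 5 each), and no neighbours overlapped.

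**Figure D3:**
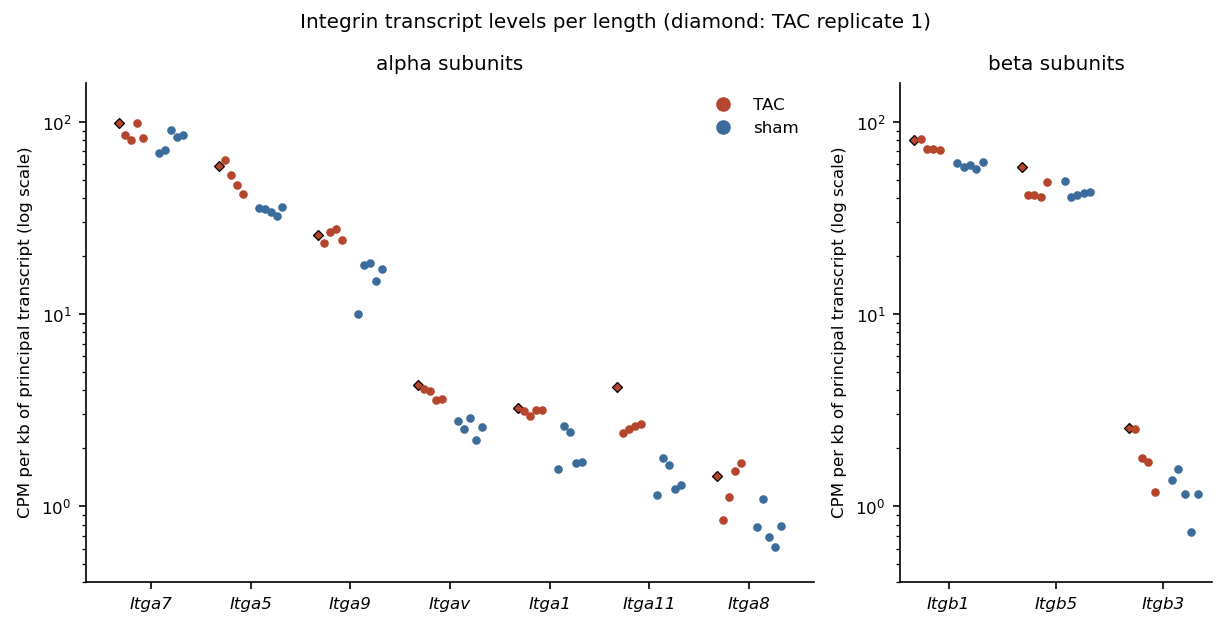
CPM per kb of principal transcript on a log axis for the alpha chains (left panel) and beta chains (right panel), with 1 point per library, TAC in red left of sham in blue, and TAC replicate 1 as a diamond. Itga7, Itga5 and Itga9 lie well above the other 4 alpha chains, and Itgb3 well below the other beta chains.

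The share of each subunit in its class was also taken per library. Itga7 made up 46.7% to 53.3% of the alpha chain level per length in TAC libraries and 53.9% to 61.2% in sham libraries, without overlap. This is not a lower level of Itga7, whose mean was 89.1 CPM per kb in TAC and 79.8 in sham. Every other alpha chain, part of the same sum, was called higher. In CPM, 12.2% of all tested genes had TAC above sham without overlap and 11.6% below, and for shares no such background was taken. The shares of Itga5 (25.7% to 34.6% in TAC and 22.4% to 29.6% in sham) and Itga9 (12.9% to 15.6% in TAC and 8.3% to 13.5% in sham) were higher by the median but overlapped. With all annotated exons as the length (8092 bases for Itga7, against 4013 for its principal transcript), the share of Itga7 was 33.2% to 39.3% in TAC and 39.9% to 47.1% in sham, and Itga5 came above Itga7 by median share in TAC (38.9% and 36.5%), though not in sham (33.9% and 44.7%). Summed over the 7 alpha chains, the level was 160 to 197 CPM per kb in TAC and 120 to 151 CPM per kb in sham, and for the 3 beta chains 115 to 141 in TAC and 99.6 to 111 in sham. These shares are descriptions of transcripts, and no test was made of them.

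Set against the beta1 chain within each library, the values do not depend on the scaling. Reads of Itga11 per read of Itgb1 had a median of 0.0468 in TAC and 0.0281 in sham, with ranges that met only at the edge (0.0387 to 0.0675 in TAC, 0.0245 to 0.0397 in sham). For Itga5 the median was 0.839 in TAC and 0.672 in sham, and for Itga7 1.22 in TAC and 1.46 in sham, both with overlap. Among the members, only the ratio of Itgav to Itgb1 did not overlap between groups. It was 0.0909 to 0.101 in TAC and 0.0722 to 0.0889 in sham, so the ranges nearly met. The share of all genes without overlap in this ratio was not taken. In CPM, groups without overlap were common, with TAC higher in 12.2% of all tested genes and lower in 11.6%. The Itgav ratio is therefore not singled out from other genes. The ratios were not tested.

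Integrin subunits outside the 10 were taken as a second list. The table holds 17 of them and 12 were tested. Of these, 4 were higher in TAC (33.3%, against 18.8% of all tested genes), none was lower (against 17.0%) and 8 did not pass. Their median log2 fold change was 0.09, against 0.00 for all genes, and none was lower at an unadjusted p under 0.05. Without TAC replicate 1, 3 were higher, as Itgb8 no longer passed (log2 fold change 0.60, edgeR adjusted p = 0.0871). With DESeq2, Itgad, an alpha chain of leukocytes that was too rare for the main test, was called lower (log2 fold change -1.08, adjusted p = 0.0294 by DESeq2). The difference in calls between the 10 members and these subunits was not tested, and both lists were chosen with earlier results of these data known. Itgam and Itgb2, the chains of a leukocyte integrin of macrophages and neutrophils, both rose by 0.86 on the log2 scale (edgeR, adjusted p = 0.000851 and 0.00533). Without TAC replicate 1 they rose by 0.71 and 0.66 (edgeR, adjusted p = 0.000443 and 0.00668). Itgam had 11.7 ± 2.69 CPM in TAC and 6.44 ± 0.702 CPM in sham. Beside these chains, 7 of 7 macrophage markers were higher and the 4 neutrophil markers were too rare to be tested, and their part in the result was not tested. Itgb4, a laminin receptor chain of epithelia, and Itgb8, an activator of latent TGF-beta together with alphaV, also rose (log2 fold changes 0.51 ± 0.15 and 0.74 ± 0.25, edgeR adjusted p = 0.0203 and 0.0362). Itgb8 stood at 2.62 ± 0.644 CPM in TAC and 1.58 ± 0.503 CPM in sham. Itga6, the other abundant laminin receptor chain, had 121 ± 12.8 CPM in TAC and 117 ± 9.1 CPM in sham and did not pass (edgeR, adjusted p = 0.723). Itga6, like Itga2b above, was named after its values were seen.

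Genes that act on the inside of integrins were mostly higher in TAC. Of 31 tested activators, adaptors and kinases, 18 were higher in TAC (58.1%, against 18.8% of all tested genes), 3 were lower (9.68%, against 17.0%) and 10 failed to pass. Their median log2 fold change was 0.31. As this list was chosen with earlier results of these data known, its shares are a description and not a test. Without TAC replicate 1, 17 were higher and 2 lower, as Fermt2 did not pass (log2 fold change -0.16, edgeR adjusted p = 0.0606). The 5 with the smallest adjusted p were Flna, Dab2, Actn4, Actn1 and Itgb1bp2. Flna, filamin A, which ties beta chains to actin, had 601 ± 48.5 CPM in TAC and 404 ± 35.4 CPM in sham (log2 fold change 0.57 ± 0.07, edgeR adjusted p = 0.000134). Dab2, an endocytic adaptor of integrins, and the alpha-actinins Actn1 and Actn4 had log2 fold changes of 0.93, 0.78 and 0.54. The 3 that fell were Itgb1bp2, Tns1 and Fermt2. Itgb1bp2 encodes melusin, a muscle protein that binds the beta1 tail and is known from mouse work to act in the response to pressure load. It had 141 ± 16.1 CPM in TAC and 195 ± 6.58 CPM in sham (log2 fold change -0.47 ± 0.07, edgeR adjusted p = 0.000361). Every TAC library lay below every sham library, which was so for 11.6% of all tested genes. The 7 cardiomyocyte markers had a median log2 fold change of -0.43, and their part in the Itgb1bp2 result was not tested. Tns1, tensin 1, fell by 0.43 and Fermt2, the kindlin of muscle and most other tissues, by 0.22 on the log2 scale (edgeR, adjusted p = 0.000426 and 0.0368). Among the talins, named after their values were seen, Tln1 rose by 0.39 (edgeR, adjusted p = 0.000494), while Tln2, the form of adult striated muscle, had 190 ± 14.4 CPM in TAC and 190 ± 22 CPM in sham.

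Genes of integrin ligands were mostly higher in TAC. Of 26 tested, 20 were higher (76.9%, against 18.8% of all tested genes), 1 was lower (3.85%, against 17.0%) and 5 failed to pass. The median log2 fold change was 0.75. This list was chosen with earlier results of these data known, so its shares are a description and not a test. Without TAC replicate 1, 19 were higher and 1, Thbs2, lower (log2 fold change -0.51, edgeR adjusted p = 0.0339). The 5 with the smallest adjusted p were Nid1, Postn, Lamc1, Lamb1 and Lama4, of which the laminin chain gene Lama4 had 169 ± 11 CPM in TAC and 103 ± 12.3 CPM in sham (log2 fold change 0.73 ± 0.08). Lama2, which encodes the laminin chain bound by alpha7 in muscle, rose by 0.25 (edgeR, adjusted p = 0.0301). Fn1, fibronectin, the ligand of alpha5, had 466 ± 321 CPM in TAC and 120 ± 16.3 CPM in sham, and Tnc, tenascin-C, the ligand of alpha9, 51.6 ± 43.2 CPM in TAC and 5.82 ± 2.14 CPM in sham. These 3 genes were named after their values were seen. In Fn1, TAC replicate 1 gave 1037 CPM and the other TAC libraries at most 347. For Fn1 the log2 fold change was 1.96, and 1.43 without TAC replicate 1. For Tnc it was 3.13, and 2.52 without that library. The gene called lower was Vtn, vitronectin, a ligand of alphaV integrins (log2 fold change -0.26 ± 0.09, edgeR adjusted p = 0.0453). This call missed the threshold in 7 of the 10 fits with 1 library removed, among them that without TAC replicate 1 (log2 fold change -0.20, edgeR adjusted p = 0.101), and in 4 of the 7 other alternatives. Those 4 were DESeq2 (adjusted p = 0.0559), the replicate block (0.0596), no filter (0.0532) and library totals (0.217), and over all alternatives the adjusted p ran from 0.0156 to 0.217. Those not passing were Ltbp1, Thbs1, Thbs2, Lama5 and Npnt, of which Npnt, nephronectin, the ligand of alpha8, had 2.65 ± 1.62 CPM in TAC and 1.76 ± 0.382 CPM in sham. The ligand genes Edil3 and Spp1 were too rare to be tested. Spp1, osteopontin, a ligand of alphaV and alpha9 singled out after its values were seen, had 17.3 CPM in TAC replicate 1 and at most 0.603 CPM in any other library.

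**Figure D4:**
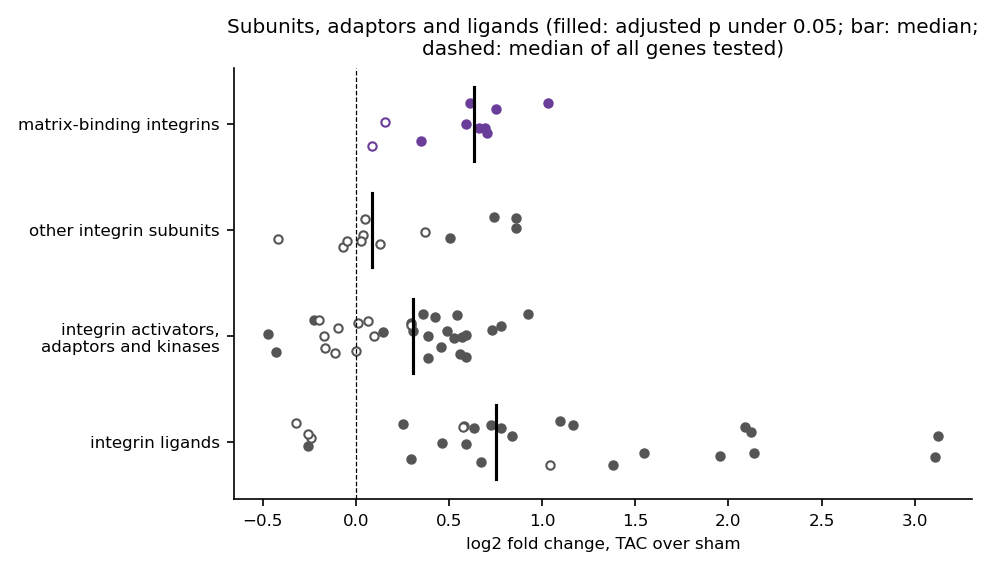
Log2 fold changes of TAC over sham for the tested genes of 4 groups, 1 point per gene, filled where the adjusted p was under 0.05, with the median as a bar and the median of all tested genes as a dashed line. The medians are 0.64 for the members, 0.09 for other subunits, 0.31 for activators, adaptors and kinases and 0.75 for ligands.

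Markers of several cell types also differed between TAC and sham, while most of those of other cell types did not pass or were too rare. For comparison, 18.8% of all tested genes were called higher and 17.0% lower. The 25% of smooth muscle and pericyte markers called higher is near that share, and the 33.3% of endothelial markers rests on few genes. Fibroblast markers, of which 4 of 7 were higher and 1, Gsn, lower, summed to 2513 to 4279 CPM in TAC and 2052 to 2386 CPM in sham, with the highest sum in TAC replicate 1. Without that library 3 fibroblast markers were higher, as Pdgfra did not pass (edgeR, adjusted p = 0.0558). Macrophage markers, all 7 tested higher, summed to 317 to 543 CPM in TAC and 197 to 228 CPM in sham, again highest in TAC replicate 1. Cardiomyocyte markers were lower in 5 of 7 and did not overlap in sum, and TAC replicate 1 had the lowest sum, 48228 CPM against a TAC median of 62506. Endothelial markers (2 of 6 higher) summed to 1046 to 1275 CPM in TAC and 912 to 1132 CPM in sham, with TAC replicate 1 lowest in TAC. Smooth muscle and pericyte markers (2 of 8 higher, Cspg4 and Pdgfrb) gave 1148 to 1294 CPM in TAC and 1075 to 1415 CPM in sham. Without TAC replicate 1, 3 of 6 endothelial and 3 of 8 smooth muscle and pericyte markers were higher, with Tie1 and Rgs5 added (edgeR, adjusted p = 0.0174 and 0.0125). Markers of dividing cells, all 4 higher, summed to 38.2 to 90.8 CPM in TAC and 2.93 to 12.3 CPM in sham. The 5 lymphocyte markers summed to at most 1.85 CPM in TAC and 1.83 CPM in sham. The 4 neutrophil markers gave at most 2.82 CPM in TAC and 5.72 CPM in sham, with Ly6g at 0 in all 10 libraries. The part of these cell types in the integrin results was not tested.

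The genes most alike in profile to the 3 members with the largest fold changes were found by the root mean square difference of log2 CPM, each gene centred on its own mean, over all 10 libraries and 11438 genes. For Itga11 they were Myo5a, Mtap1a and Unc93b1, with differences of 0.103, 0.123 and 0.124, where the median gene differed by 0.585. For Itga8 they were Astn1, Tmem229b and Stx1a (0.163, 0.185 and 0.185, median gene 0.5). For Itga9 they were Thy1, Sparcl1 and Tmem132a (0.0801, 0.119 and 0.139, median gene 0.474). Thy1, a surface protein known as a ligand of alphaV integrins and as a fibroblast and lymphocyte marker, had a log2 fold change of 0.65 beside 0.70 for Itga9. All libraries share the contrast between TAC and sham, so likeness in these profiles includes it.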

How the data were processed

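Per the labels' protocols, polyadenylated RNA was sequenced from one end without strand information. The authors deposited whole-number read counts per Ensembl gene, not normalized, for all 10 libraries. The submitters' processing notes list TopHat2 2.0.10, Bowtie2 and HTSeq with mm10 for sham, and TopHat 1.3.0, Bowtie and HTSeq with mm9 and mm10 for TAC, and the file header names GRCm37. The sources used here do not give the annotation release or counting settings. A row of column totals was left out.

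Counts were tested with the quasi-likelihood test of edgeR 4.0.16 in R 4.3.3, using TMM factors, filterByExpr (minimum count 10, minimum total 15) and no covariate. P-values were Benjamini-Hochberg adjusted over 12001 genes, with a threshold of 0.05. Log2 CPM used a prior count of 2. Alternatives were RLE factors, library totals, no filter, DESeq2 1.42.0, limma-voom (limma 3.58.1), robust dispersion, a replicate block and leaving out each library. The method was checked on simulated data, with 50 genes changed at each fold. It recovered 24% of 1.25-fold, 60% of 1.5-fold, 94% of 2-fold and 100% of 4-fold changes. At folds as small as those of Itga7 (1.12) and Itgb5 (1.06), not passing therefore does not show that a gene was unchanged. Chi-square divided by the number of genes was 2.57 to 23.5 for the 20 pairs of libraries inside a group, so none was counted as a repeat.

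Lengths and overlaps come from GENCODE M21 (GRCm38), matched by Ensembl ID. A symbol with more than 1 row, Tns1, was read from the ID that GENCODE names so. The members and gene lists were chosen with earlier results of these data known. Text genes are all members, in each list the called genes of lowest adjusted p, at most 5, small counts in full, and the 3 nearest profiles of 3 members, sought where mean log2 CPM reached 1. Other names are marked as chosen after their values were seen.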

Additional observations from a re-analysis of the deposited data

Results flagged for a closer look

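In each group of 5 libraries, a library was picked out where its gap to the nearest of the others exceeded 0.71 of the group's range. Over 158 groups (10 members and 69 genes of the lists, 2 groups each) this took 19, where chance gives about 1 in 20, and 11 of the 19 were in TAC replicate 1.

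Among the members, Itga11 in TAC replicate 1 stood at 20.6 CPM, with the next TAC library at 13.3. Itgb5 in sham replicate 1 stood at 162 CPM, with the next sham library at 141.

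In TAC replicate 1 the leukocyte chains Itgam (16.4 CPM, next 11.0), Itgb2 (17.1) and Itgb7 (2.31, next 1.22) and the leukocyte kindlin Fermt3 (16.2, next 11.4) were highest, while Lims1 was lowest (73.3 CPM, next 92.4). The ligand genes Fn1 (1037 CPM, next 347), Svep1 (117, next 64.7), Col1a1 (2998, next 1041), Col1a2 (1847, next 725) and Col3a1 (3054, next 1254) were highest there too. In this library the fibroblast and macrophage marker sums were also the highest, the cardiomyocyte sum was the lowest of all libraries (48228 CPM, TAC median 62506) and the endothelial sum the lowest in TAC (1046 CPM, TAC median 1181). Their part in these values was not tested.

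In other libraries, Lims2 stood at 217 CPM in TAC replicate 2 (next 186). Itgb6 was low in sham replicate 1 (9.43 CPM, next 18.3), Itgb2 high in sham replicate 2 (9.15, next 6.07) and Itgam high in sham replicate 5 (7.67, next 6.29). Parvb was low in sham replicate 4 (256 CPM, next 278), Tns1 low in sham replicate 2 (1379, next 1591) and Thbs1 high in sham replicate 5 (116, next 50.1).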

How the results depend on the processing

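Of 170 comparisons of a member with an alternative (17 alternatives for each of 10 members), 163 kept their direction and their side of the threshold. Those that did not were Itgb3 in 5 sets that left out a library, Itga7 with library totals (log2 fold change 0.26) and Itgb5 without TAC replicate 1, which turned to -0.011 (at most 0.14 over the sets that left out a library). The count of members called higher was 7 to 8 over the 10 sets that left out a library and 9 with library totals, and none was called lower in any of the 17. With library totals 1159 genes were lower in TAC in place of 2040, and 3257 higher in place of 2251. Leaving out a library gave 1876 to 2186 genes higher and 1713 to 1975 lower. Of the other integrin subunits, Itgad was called lower with no filter on low counts and with DESeq2. With the replicate block Itgb6 was called lower (log2 fold change -0.41, edgeR adjusted p = 0.03). Leaving out a library gave 0 to 1 called lower. Without sham replicate 1 this was Itgb6 (log2 fold change -0.58, edgeR adjusted p = 0.00823). Of the ligand genes called lower (1 in the main test), 0 were lower with library totals, 0 with no filter and 2 with robust dispersion, and 0 to 2 when a library was left out. The cause was not tested.

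No pairing of the libraries by replicate number is given. Deviations of same-numbered TAC and sham libraries correlated between -0.111 and 0.281 over 1000 genes, above 0.1 in 2 of 5. Of the 5 TAC libraries, 1 correlated best with its own number. So few correlations cannot decide whether the numbers pair the libraries. With replicate number as a block, 8 members were higher, and 2113 genes were higher and 1924 lower. At this depth 5 of the 17 other integrin subunits and 2 of the 28 ligand genes had too few reads to be tested.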
